A study of Mus musculus with 6 samples.

Results

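Collagen chains are the gene products described here: all protein-coding mouse genes with a symbol of the form Col, a number, a and a number. The GENCODE M21 annotation of GRCm38 (also called mm10) holds 44 such genes, and all 44 were among the 39017 gene identifiers of the deposited count table. They were sorted by structure into 7 classes: 11 fibrillar chains, 8 basement membrane chains, 6 beaded-filament chains of type VI, 9 fibril-associated chains, 3 short-chain network chains, 4 transmembrane chains and 3 others.

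The libraries hold RNA that came down with HA-tagged ribosomes from the corpus callosum of C57BL/6 mice carrying RiboTag and Olig1-Cre. Cre switches on an HA-tagged form of the ribosomal protein RPL22, and the Olig1 promoter drives that Cre, which is meant to act in the oligodendrocyte lineage. The 3 cuprizone libraries (replicates 30, 31 and 32) came from mice given a diet with 0.2% cuprizone, a copper-binding compound toxic to oligodendrocytes that leads to loss of myelin. The 3 control libraries (replicates 24, 26 and 27), titled Vehicle, carry the same alleles and went through the same pull-down. The protocol used females of 8 to 10 weeks of age. It names cuprizone periods of 6 and 9 weeks and a recovery of 3 weeks, without tying one of these stages to the cuprizone libraries. No label states that the libraries of a group come from separate animals, so p-values measure the spread between these libraries, which may in part be technical.

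Collagens are proteins of the extracellular matrix in which 3 chains wind into a triple helix. Fibrillar collagens form cables, type IV collagen forms the sheet of basement membranes, and fibril-associated and transmembrane collagens link fibrils to other matrix or to cells. Healthy brain tissue holds little fibrillar collagen, most of it around vessels and in the meninges, while glia and neurons make several of the minor chains.

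Total counts ran from 19455245 to 22381307 in the cuprizone libraries and from 18549360 to 18771737 in the control libraries. Collagen chains took 0.0196% to 0.0311% of the counts in cuprizone and 0.0181% to 0.0231% in control. Defining markers of mature oligodendrocytes were present and 12 of 12 fell, with summed levels of 8080 to 15108 CPM (counts scaled to a common library size of 1e6, with TMM factors) in cuprizone and 61840 to 83506 CPM in control. Astrocyte markers were present as well, at a summed 15542 to 29955 CPM in cuprizone and 21908 to 24687 CPM in control. Counts of cuprizone replicate 32 differed most within that group: the chi-square divided by its degrees of freedom was 85.1 with replicate 30 and 101 with replicate 31, where replicates 30 and 31 gave 26.6. Control replicate 27 was far above the rest for markers of the choroid plexus, as given with the type VIII chains. In bulk libraries, fewer cells of a type and less RNA per cell cannot be told apart.

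Of the 44 chains 32 passed the filter on low counts and were tested with edgeR's quasi-likelihood test. Col5a3 rose in cuprizone, Col2a1 and Col6a3 fell, and 29 did not pass a Benjamini-Hochberg adjusted p of 0.05 over all 16569 genes tested. The share of chains that rose was 3.12%, beside 1.87% of all genes tested, and the share that fell was 6.25%, beside 5.7% of all genes tested. Both directions together gave 9.38% of chains and 7.57% of all genes, so the count of called chains was near the background. Across the 32 chains 20 fold changes were positive and 12 negative, with a median log2 fold change of 0.12, beside 0.02 over all genes. The groups did not overlap for 3 chains higher in cuprizone and 3 lower, where 12.6% and 17.6% of all genes did not overlap in the same directions. At an unadjusted p under 0.05 there were 6 chains, beside 23.3% of all genes. DESeq2 called 2 chains higher (Col5a3 and Col4a6) and 2 lower, beside 5.21% and 8.46% of all genes, and limma-voom called 1 and 2, beside 1.77% and 5.87%. With control replicate 24, 26 or 27 or cuprizone replicate 30, 31 or 32 left out, 0.931%, 0.432%, 0.385%, 0.543%, 1.63% and 2.77% of all genes were called higher, in that order. In the same order 3.08%, 2.81%, 2.94%, 2.87%, 5.44% and 5.75% were called lower, beside 1 to 3 chains higher and 0 to 2 lower.

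**Figure D1:**
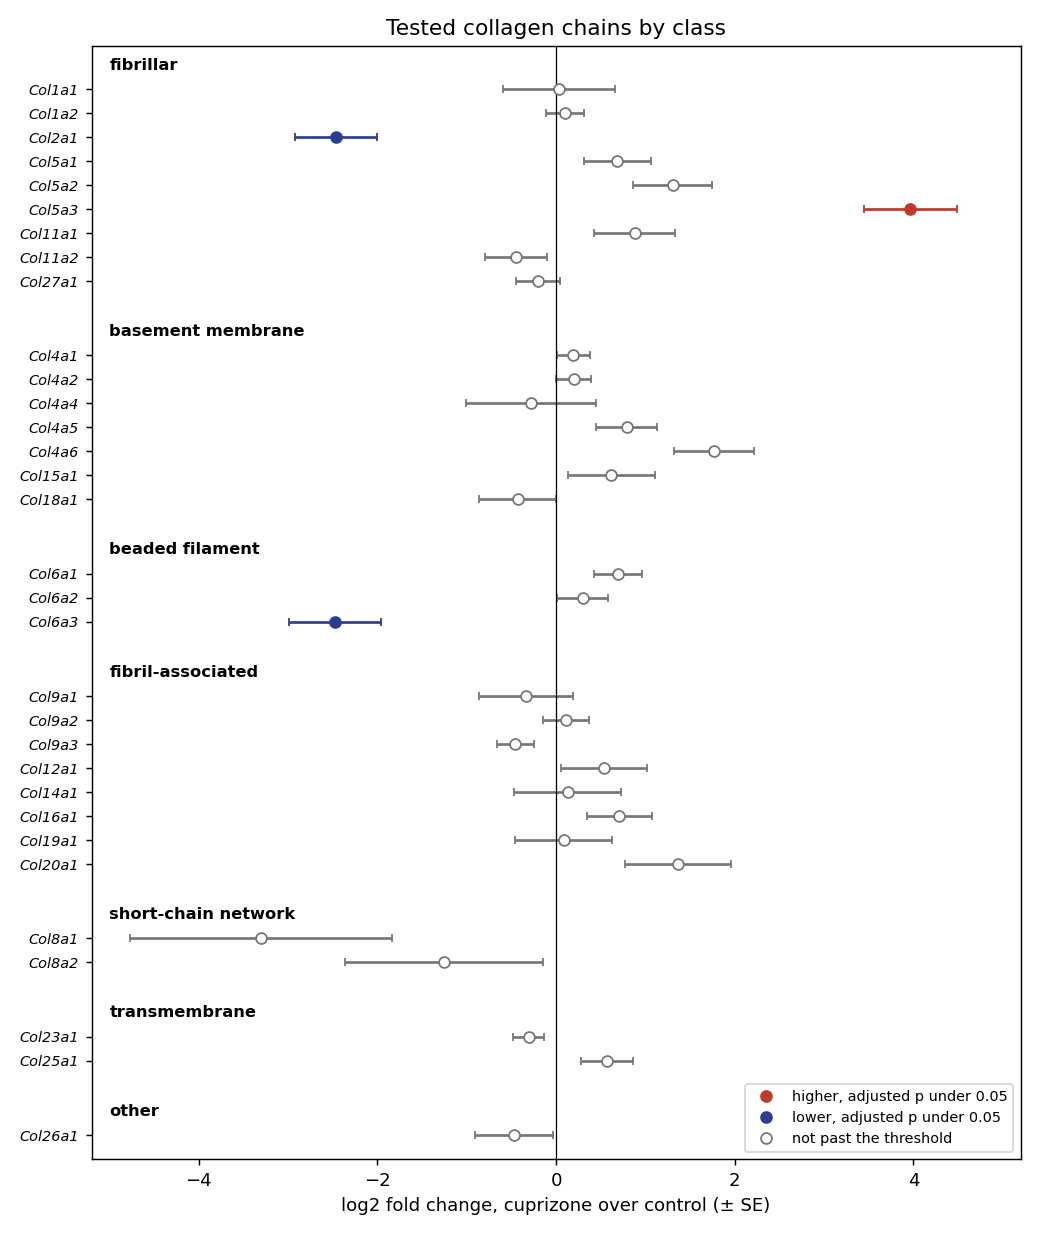
Log2 fold change of each of the 32 tested chains, cuprizone over control, in order of class; bars are standard errors and filled points passed the threshold. Col5a3 lies at 3.97, Col2a1 and Col6a3 lie near -2.5, and Col8a1 has the widest error bar.

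Fibrillar chains are the cable-forming ones. Of 11, 9 were tested, 1 rose and 1 fell. The class summed to 87.5, 84.4 and 44.9 CPM in cuprizone replicates 30, 31 and 32, against 60.9, 81.8 and 54.2 CPM in control replicates 24, 26 and 27, so the summed level overlapped between the groups. Within the class Col5a3 and Col5a2 had the largest positive fold changes.

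Col5a3 encodes the alpha 3 chain of type V collagen, a minor fibrillar collagen that regulates the assembly of fibrils (ENSMUSG00000004098, chromosome 9, 20770050 to 20815067 in GRCm38). It had 22.4, 30.1 and 8.49 CPM in cuprizone replicates 30, 31 and 32, against 1.53, 1.53 and 0.815 CPM in control replicates 24, 26 and 27. The lowest cuprizone library, replicate 32, lay more than 5 times above the highest control. Col5a3 rose by a log2 fold change of 3.97 ± 0.52 (SE), or 15.7-fold (edgeR adjusted p = 0.00596). By mean CPM per kilobase of exon, it ranked 4 among the 44 chains in cuprizone at 2.98 ± 1.61 and 24 in control at 0.190 ± 0.0607 (SD, n = 3). With any 1 library left out its log2 fold change ran from 3.57 to 4.34 and its adjusted p was at most 0.0345.

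Levels of other cells' markers differed between the cuprizone libraries in which Col5a3 was high and low. Progenitor markers of the oligodendrocyte lineage summed to 741, 690 and 371 CPM in cuprizone replicates 30, 31 and 32, and to 620, 817 and 565 CPM in control replicates 24, 26 and 27. Of the 8 progenitor markers 7 were matched by name, and these were tested. By edgeR, DESeq2 and limma-voom alike none of them passed. A single marker had an unadjusted edgeR p under 0.05, beside 23.3% of all genes. Astrocyte markers summed to 25250, 29955 and 15542 CPM in cuprizone and to 24687, 22098 and 21908 CPM in control, with 8 of 8 tested, none past the threshold with these tools and none at an unadjusted p under 0.05. Both sums were lowest in cuprizone replicate 32, as Col5a3 was within its group, and their part in its rise was not tested.

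The stretch before the RefSeq start site of Col5a3 (chr9:20815068-20815317 in GRCm38.p6, minus strand, 250 bases) is shown because this chain had the largest fold change, and capitals mark motif matches.
Col5a3: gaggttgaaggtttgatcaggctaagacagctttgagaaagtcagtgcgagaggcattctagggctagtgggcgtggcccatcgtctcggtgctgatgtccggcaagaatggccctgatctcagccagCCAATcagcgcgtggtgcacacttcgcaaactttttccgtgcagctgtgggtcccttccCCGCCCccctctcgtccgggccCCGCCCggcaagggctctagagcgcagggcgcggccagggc

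The motifs searched, on both strands, were the TATA box as TATAAA, the CCAAT box by its own letters, the GC box as GGGCGG, the AP-1 site as TGANTCA, and an element bound by ATF4 with C/EBP proteins as TGATGNAA. The Col5a3 window held 1 CCAAT and 2 GC boxes, with no base in more than 1 motif. Among 32851 windows of the same length in the RefSeq table, 33.8% held the CCAAT box, 32.7% the GC box, 12.4% the TATA box, 6.75% the AP-1 site and 3.45% the ATF4 element. Both motifs found are thus common letters, and a match is a description, not a bound site. Of the 44 chains 35 had an entry in the table.

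The partner chains of Col5a3 did not pass the test. Col5a1, which type V heterotrimers with alpha 3 also contain, had 6.54, 3.04 and 3.26 CPM in cuprizone, against 3.24, 1.87 and 2.85 CPM in control, with a log2 fold change of 0.69 ± 0.37 (edgeR adjusted p = 0.315). Col5a2 had 1.85, 0.770 and 0.991 CPM in cuprizone, against 0.530, 0.567 and 0.349 CPM in control, so its groups did not overlap, with a log2 fold change of 1.31 ± 0.44 (edgeR adjusted p = 0.13). Per kilobase, the ratio of Col5a3 to Col5a1 was 4.27, 12.4 and 3.25 in cuprizone replicates 30, 31 and 32, against 0.589, 1.02 and 0.356 in control replicates 24, 26 and 27. Alpha 3 thus outnumbered alpha 1 transcripts per length in every cuprizone library. In control replicate 26 the ratio of 1.02 rested on 27 counts of Col5a3 and 33 of Col5a1, so the order there is not settled.

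Col2a1 encodes the chain of type II collagen, the main fibril of cartilage (ENSMUSG00000022483, chromosome 15, 97975602 to 98004695). It had 1.53, 1.58 and 0.377 CPM in cuprizone replicates 30, 31 and 32, against 5.60, 7.08 and 6.76 CPM in control replicates 24, 26 and 27. The groups did not overlap, and the controls lay close together. Col2a1 fell by 2.46 on the log2 scale (SE 0.45, edgeR adjusted p = 0.0206). Its adjusted p was 0.0579, 0.0766 and 0.0737 without control replicate 24, 26 or 27 and 0.0587 without cuprizone replicate 30. Without cuprizone replicate 32 its fall was 2.05 on the log2 scale, with an adjusted p of 0.00442. The summed mature oligodendrocyte markers given above were also lower in every cuprizone library than in every control, and the part of this loss in the falls of Col2a1, Col6a3 and the processing genes below was not tested.

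Chains that assemble with type II collagen in cartilage did not follow it past the threshold. Col11a2, a type XI chain, had 37.0, 34.6 and 16.2 CPM in cuprizone, against 34.8, 55.2 and 30.1 CPM in control (log2 fold change -0.45 ± 0.35, edgeR adjusted p = 0.49). It was the most abundant fibrillar chain per length in both groups, at 4.26 ± 1.65 CPM per kilobase in cuprizone and 5.82 ± 1.94 in control (SD, n = 3). Col11a1, another type XI chain, had 4.33, 2.40 and 1.37 CPM in cuprizone, against 1.06, 1.81 and 1.51 CPM in control. Its log2 fold change was 0.88 ± 0.45 (edgeR adjusted p = 0.29). Per kilobase, Col11a2 exceeded Col11a1 by 15.9, 26.8 and 22.0 times in cuprizone, against 60.9, 56.4 and 36.8 times in control, and these ratios did not overlap.

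Among the classical chains of scar and connective tissue Col1a2 was detected at a moderate level, while Col1a1 and Col3a1 stayed under 2 CPM in every library. Col1a2, a chain of type I collagen, had 9.92, 6.89 and 6.79 CPM in cuprizone, against 6.90, 8.67 and 6.41 CPM in control, and the groups overlapped (log2 fold change 0.10 ± 0.21, edgeR adjusted p = 0.815). Col1a1, its partner in type I collagen, had 0.225, 1.07 and 1.79 CPM in cuprizone, against 1.0, 1.13 and 0.874 CPM in control. Type I collagen holds more alpha 1 than alpha 2 chains, while here the per-length ratio of Col1a1 to Col1a2 transcripts was 0.0430, 0.294 and 0.50 in cuprizone and 0.275, 0.248 and 0.258 in control. Col3a1, the chain of type III collagen, had 1, 0 and 12 counts in cuprizone and 1, 0 and 2 counts in control, too few to be tested.

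The 8 fibroblast markers summed to 6.00, 2.57 and 9.77 CPM in cuprizone and 2.24, 1.59 and 8.85 CPM in control, 2 were tested, and Lum was at 0 in cuprizone replicate 31 and control replicates 26 and 27. Neither tested marker passed with edgeR, DESeq2 or limma-voom, nor had an unadjusted p under 0.05. Fmod, the most abundant of them in most libraries, had 4.73, 2.01 and 2.41 CPM in cuprizone, against 1.24, 0.963 and 4.43 CPM in control. Ogn was at 3.09 CPM in control replicate 27 and at most 0.519 CPM elsewhere. Decorin, encoded by Dcn, was at 3.35 CPM in cuprizone replicate 32 and at most 0.524 CPM elsewhere, and that replicate also held 12 of the 16 counts of Col3a1. Schwann cell markers, which would mark peripheral myelin, summed to 5.47 to 10.8 CPM in cuprizone and 4.19 to 7.60 CPM in control. Of 6, 3 were tested, and none passed with the same tools or had an unadjusted p under 0.05. Pmp2 was at 0 in all cuprizone libraries and control replicate 27. However, 86.9% of its exonic bases are shared with Gm37389 on the same strand. The sources used here do not say how shared reads were counted.

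**Figure D2:**
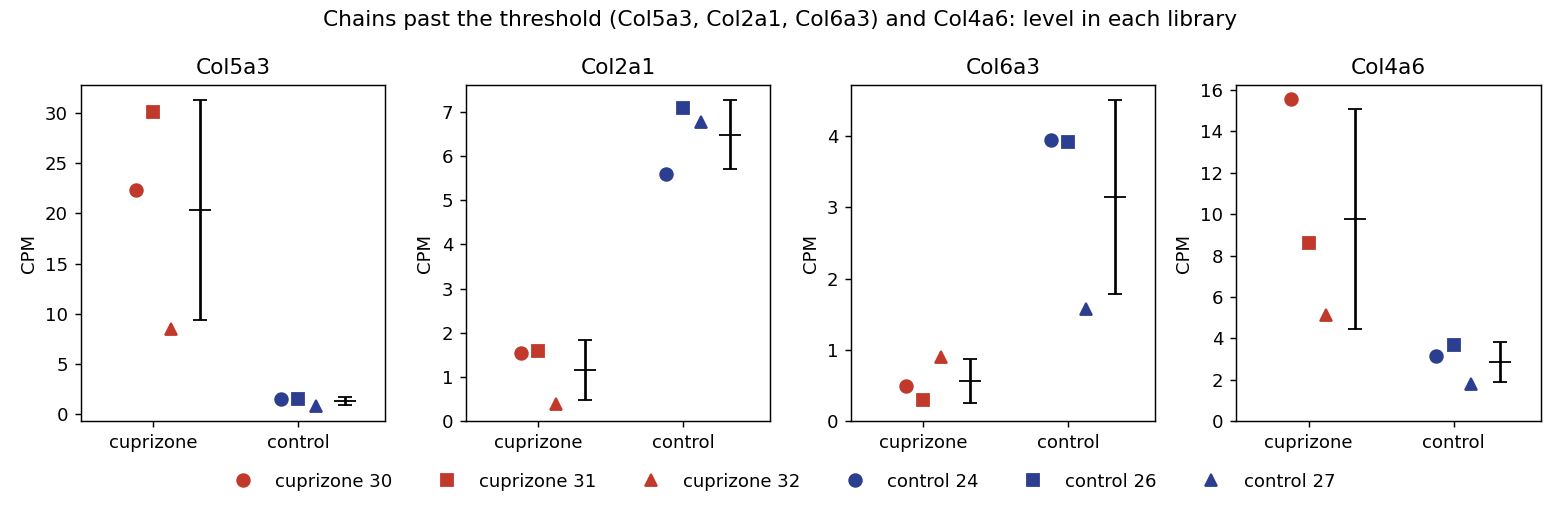
Level in CPM of the chains past the threshold (Col5a3, Col2a1 and Col6a3) and of Col4a6 in each library, cuprizone left of control; black bars give the mean and SD of 3 libraries. The cuprizone libraries lie above all controls for Col5a3 and Col4a6 and below all controls for Col2a1 and Col6a3.

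Basement membrane chains build the sheet under endothelium and around vessels. Of 8, 7 were tested. Neither edgeR nor limma-voom called any, DESeq2 called Col4a6 higher, and Col4a6 was also the 1 chain at an unadjusted edgeR p under 0.05. The class summed to 56.5, 39.1 and 39.7 CPM in cuprizone, against 30.5, 34.0 and 35.9 CPM in control. The lowest cuprizone sum lay above the highest control sum. Col4a6 is part of this sum and was the 1 tested chain of the class whose groups did not overlap. The class sum without Col4a6 was not computed. On the per-length scale the class held 17.1%, 14.2% and 19.4% of the collagen signal in cuprizone, against 12.7%, 13.5% and 11.0% in control. In control replicate 27 the short-chain network class held 25.1%, against 1.07% to 9.04% in the other libraries, which lowers every other class's share there. Shares without that class were not computed.

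Col4a6 encodes the alpha 6 chain, which pairs with alpha 5 in basement membranes of smooth muscle and skin (ENSMUSG00000031273, chromosome X, 141165403 to 141474076). It had 15.6, 8.60 and 5.14 CPM in cuprizone replicates 30, 31 and 32, against 3.12, 3.68 and 1.81 CPM in control replicates 24, 26 and 27. The groups did not overlap. Its log2 fold change was 1.76 ± 0.45 (edgeR adjusted p = 0.0628), with DESeq2 its adjusted p was 0.00174, and without cuprizone replicate 32 edgeR gave 2.07 with an adjusted p of 0.0206. Over all alternatives the adjusted p ran from 0.00174 to 0.20. Col4a5, its divergent neighbour 1308 bases away, had 8.30, 5.82 and 3.44 CPM in cuprizone, against 4.19, 3.23 and 2.74 CPM in control (log2 fold change 0.79 ± 0.34, edgeR adjusted p = 0.22). The ratio of Col4a5 to Col4a6 per kilobase was 0.633, 0.803 and 0.795 in cuprizone, against 1.59, 1.04 and 1.80 in control, so alpha 6 exceeded alpha 5 per length in each cuprizone library and in no control.

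The bases before the RefSeq start of Col4a6 (chrX:141474077-141474326, minus strand) are given because its groups did not overlap and it faces a gene with a fold change of the same sign.
Col4a6: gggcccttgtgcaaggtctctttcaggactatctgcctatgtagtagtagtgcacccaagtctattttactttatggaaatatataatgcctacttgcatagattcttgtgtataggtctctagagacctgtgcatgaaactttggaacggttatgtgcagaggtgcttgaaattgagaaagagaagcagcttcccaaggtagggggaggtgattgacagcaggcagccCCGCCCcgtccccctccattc

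This window held 1 GC box and none of the other 4 motifs. Its GC content was 47.6%, beside 62.8% for the Col5a3 window.

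Col4a1 and Col4a2, the chains of nearly all basement membranes, lie head to head on chromosome 8, and their annotated first exons overlap by 22 bases on opposite strands. Col4a1 had 12.2, 8.00 and 10.5 CPM in cuprizone, against 9.02, 9.29 and 8.50 CPM in control (log2 fold change 0.19 ± 0.18, edgeR adjusted p = 0.57). Col4a2 had 11.9, 7.83 and 9.67 CPM in cuprizone, against 7.37, 9.24 and 9.09 CPM in control (log2 fold change 0.20 ± 0.20, edgeR adjusted p = 0.60). Their per-length ratio was 0.904, 0.906 and 0.965 in cuprizone and 1.09, 0.892 and 0.830 in control, which overlapped and lay near 1 in every library.

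Col4a3 and Col4a4, chains of the kidney filter, also lie head to head, 71 bases apart on chromosome 1. Col4a4 had 1.89, 1.5 and 0.566 CPM in cuprizone, against 0.707, 0.680 and 3.44 CPM in control (log2 fold change -0.28 ± 0.72, edgeR adjusted p = 0.85). Col4a3 was not tested and was likewise highest in control replicate 27, at 1.69 CPM, with 0.283 to 0.513 CPM in the other libraries. Col15a1, a vascular basement membrane chain, had 1.89, 3.93 and 7.64 CPM in cuprizone, against 3.60, 3.00 and 2.16 CPM in control (log2 fold change 0.62 ± 0.49, edgeR adjusted p = 0.50). Col18a1, whose cleaved end is endostatin, had 4.42, 2.95 and 2.36 CPM in cuprizone, against 2.06, 4.59 and 6.47 CPM in control (log2 fold change -0.43 ± 0.43, edgeR adjusted p = 0.60).

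Vessel markers varied beside these chains. For scale, 23.3% of all genes tested had an unadjusted edgeR p under 0.05, and DESeq2 called 5.21% of its genes higher. The 12 endothelial markers, all tested, summed to 54.4, 25.2 and 83.7 CPM in cuprizone and 30.1, 25.8 and 30.2 CPM in control. Neither edgeR nor limma-voom called any of these; DESeq2 called Flt1 higher, and the unadjusted edgeR p was under 0.05 for 4. The 12 pericyte and smooth muscle markers summed to 105, 72.4 and 219 CPM in cuprizone and 65.3, 57.9 and 73.0 CPM in control. Of the 7 tested, 3 were higher by DESeq2 and 3 were under an unadjusted edgeR p of 0.05, with no call by edgeR or limma-voom. The 11 microglia and macrophage markers, all tested, summed to 2030, 2598 and 4787 CPM in cuprizone and 2660, 1451 and 1339 CPM in control; DESeq2 called 2 higher, edgeR and limma-voom called none, and 2 were under an unadjusted edgeR p of 0.05. All 3 sums were highest in cuprizone replicate 32, where Col15a1 was highest within the group. Col4a4, Col4a5, Col4a6 and Col18a1 were lowest there within the group, and Col4a1 and Col4a2 were highest in replicate 30. The part of vessel cells, microglia and macrophages in the levels of the basement membrane chains was not tested.

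Type VI collagen forms beaded filaments from alpha 1, alpha 2 and alpha 3 chains. Of its 6 genes 3 were tested and 1 fell. Col6a3 encodes the longest of these chains (ENSMUSG00000048126, chromosome 1, 90765923 to 90843971). It had 0.496, 0.299 and 0.896 CPM in cuprizone replicates 30, 31 and 32, against 3.95, 3.91 and 1.57 CPM in control replicates 24, 26 and 27. The groups did not overlap, and control replicate 27 lay closest to the cuprizone libraries. Col6a3 fell by 2.48 on the log2 scale (SE 0.51, edgeR adjusted p = 0.0317) on 7 to 19 counts per cuprizone library and 27 to 69 counts per control library. Its adjusted p was 0.101 and 0.111 without control replicate 24 or 26, and 0.118 and 0.0697 without cuprizone replicate 30 or 31.

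The other chains of the trimer had fold changes of the opposite sign and did not pass the threshold. Col6a1 had 6.81, 3.93 and 6.18 CPM in cuprizone, against 3.54, 2.83 and 4.08 CPM in control (log2 fold change 0.69 ± 0.26, edgeR adjusted p = 0.17). Col6a2 had 6.27, 3.85 and 7.03 CPM in cuprizone, against 5.95, 3.97 and 4.02 CPM in control (log2 fold change 0.30 ± 0.29, edgeR adjusted p = 0.58). The per-length ratio of Col6a3 to Col6a1 was 0.0267, 0.0279 and 0.0531 in cuprizone, against 0.409, 0.505 and 0.141 in control, with no overlap. Col6a4, Col6a5 and Col6a6, a row of genes on chromosome 9 whose products can stand in for alpha 3, had at most 0.566 CPM in any library and were not tested.

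The bases before the RefSeq start of Col6a3 (chr1:90843972-90844221, minus strand) are given for comparison with the windows above.
Col6a3: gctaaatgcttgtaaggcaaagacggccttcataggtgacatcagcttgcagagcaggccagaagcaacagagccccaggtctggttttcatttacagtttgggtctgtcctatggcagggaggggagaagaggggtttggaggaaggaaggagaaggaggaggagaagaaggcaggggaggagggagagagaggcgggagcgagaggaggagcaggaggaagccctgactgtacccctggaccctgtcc

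None of the 5 motifs was found in it, which says only that these letters are not in this window.

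Fibril-associated chains coat fibrils or bridge them to other matrix. Of 9, 8 were tested, with no call by edgeR, DESeq2 or limma-voom and no unadjusted edgeR p under 0.05. They gave the most abundant collagen transcripts of these libraries per length, with 44.9%, 46.7% and 36.9% of the summed collagen signal in cuprizone, against 50.4%, 44.8% and 41.0% in control. Col9a3, a type IX chain, ranked first among all chains in every library by CPM per kilobase. In CPM not divided by length, Col11a2 lay above it in cuprizone replicate 30 and control replicate 26. It had 35.7, 40.6 and 24.2 CPM in cuprizone, against 45.9, 39.3 and 52.7 CPM in control (log2 fold change -0.46 ± 0.21, edgeR adjusted p = 0.25). Its exons overlap those of Tcfl5 on the opposite strand over 234 bases, and the sources used here do not say whether counting used strand.

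Col9a2 had 9.11, 6.46 and 5.0 CPM in cuprizone, against 7.43, 6.29 and 5.36 CPM in control (log2 fold change 0.11 ± 0.25, edgeR adjusted p = 0.84), a sign that turned with control replicate 27 or cuprizone replicate 30 left out. Col9a1, the third chain of type IX collagen, was scarce, with a per-length ratio to Col9a3 of 0.00891 to 0.0260 in cuprizone and 0.0109 to 0.0208 in control. Col16a1 had 29.3, 26.6 and 11.2 CPM in cuprizone, against 11.1, 17.6 and 12.3 CPM in control (log2 fold change 0.71 ± 0.36, edgeR adjusted p = 0.29). Without cuprizone replicate 32 its log2 fold change was 1.03 with an adjusted p of 0.0310. Col20a1 had 15, 3.55 and 3.87 CPM in cuprizone, against 3.83, 2.61 and 2.27 CPM in control, so 1 library set its group mean (log2 fold change 1.36 ± 0.60, edgeR adjusted p = 0.23). Without that library, cuprizone replicate 30, the log2 fold change of Col20a1 was 0.35. Col22a1, not tested, was also highest in that replicate, at 2.39 CPM, with 0.397 to 0.566 CPM in the other libraries.

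**Figure D3:**
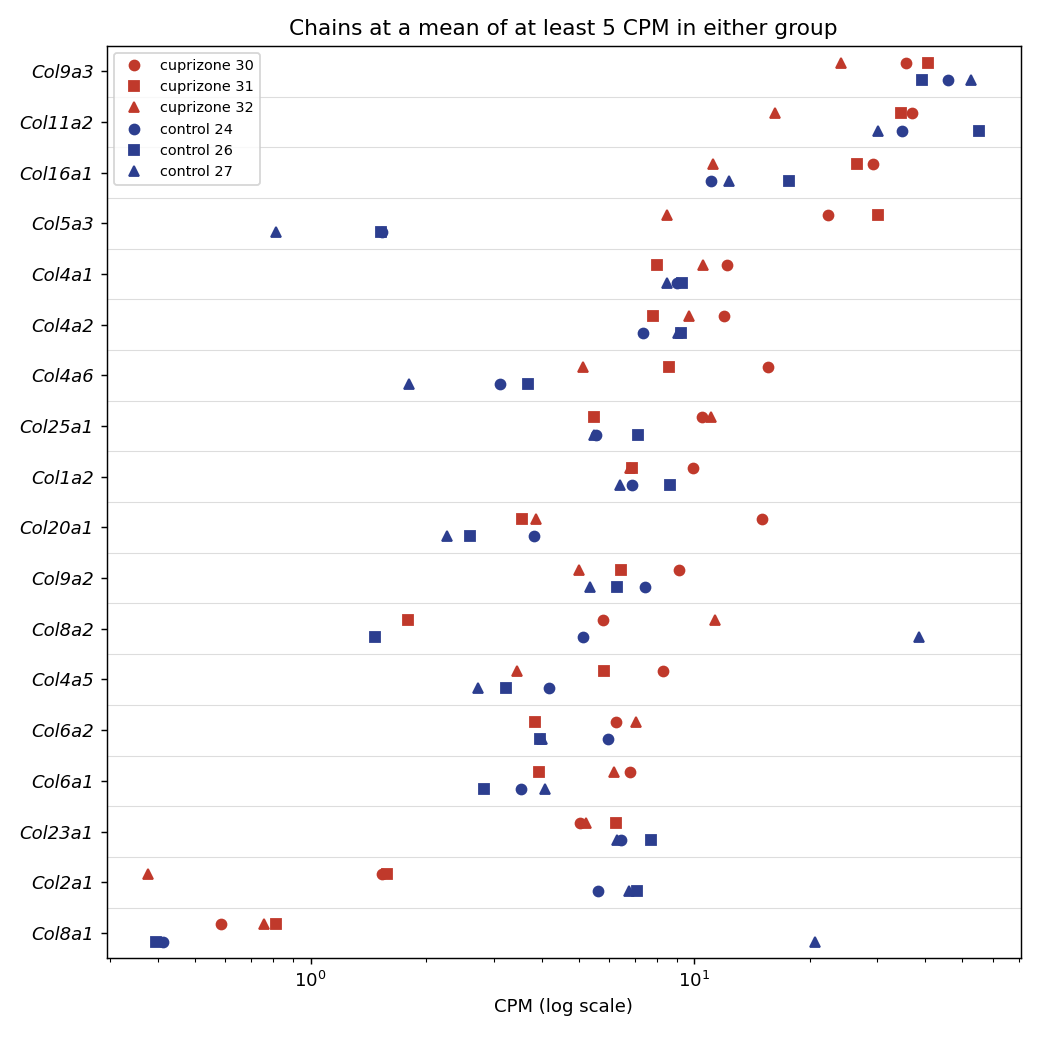
Level of the 18 chains with a mean of at least 5 CPM in either group, on a log axis, with each library as a point and the cuprizone points above the control points in each row. Col9a3 and Col11a2 lie highest, Col5a3 separates the groups most, and Col8a1 and Col8a2 have 1 control library far to the right.

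The short-chain network chains of type VIII collagen, known from the basement membrane of the cornea and from vessel walls, were set apart by 1 library. Col8a1 had 0.586, 0.812 and 0.755 CPM in cuprizone, against 0.413, 0.397 and 20.6 CPM in control replicates 24, 26 and 27. Col8a2 had 5.77, 1.80 and 11.3 CPM in cuprizone, against 5.13, 1.47 and 38.4 CPM in control. Their log2 fold changes were -3.30 ± 1.46 and -1.26 ± 1.11 (edgeR adjusted p = 0.23 and 0.55), and without control replicate 27 these became 0.81 and 0.92 (adjusted p = 0.39 and 0.64). Col10a1, the third chain of the class, had at most 1 count in a library.

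Markers of the choroid plexus, the epithelium that makes cerebrospinal fluid, were highest in control replicate 27, as Col8a1 and Col8a2 were. Within cuprizone the marker sum and Col8a1 were lowest in replicate 30, and Col8a2 was lowest in replicate 31. The 8 markers, a list drawn up after these values were seen, summed to 7.21, 20.9 and 21.5 CPM in cuprizone and to 17.9, 8.05 and 503 CPM in control. Clic6 was at 119 CPM and Kl at 176 CPM in control replicate 27, with at most 8.38 CPM and 7.12 CPM in the other libraries. Of the 7 tested, 2 were under an unadjusted edgeR p of 0.05, beside 23.3% of all genes. None was called by edgeR, DESeq2 or limma-voom, and Slc4a5 was at 0 in cuprizone replicate 30. Col4a3, Col4a4, Col9a3, Col14a1, Col17a1 and Col18a1 were also highest in control replicate 27. The part of choroid plexus RNA in these levels was not tested.

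**Figure D4:**
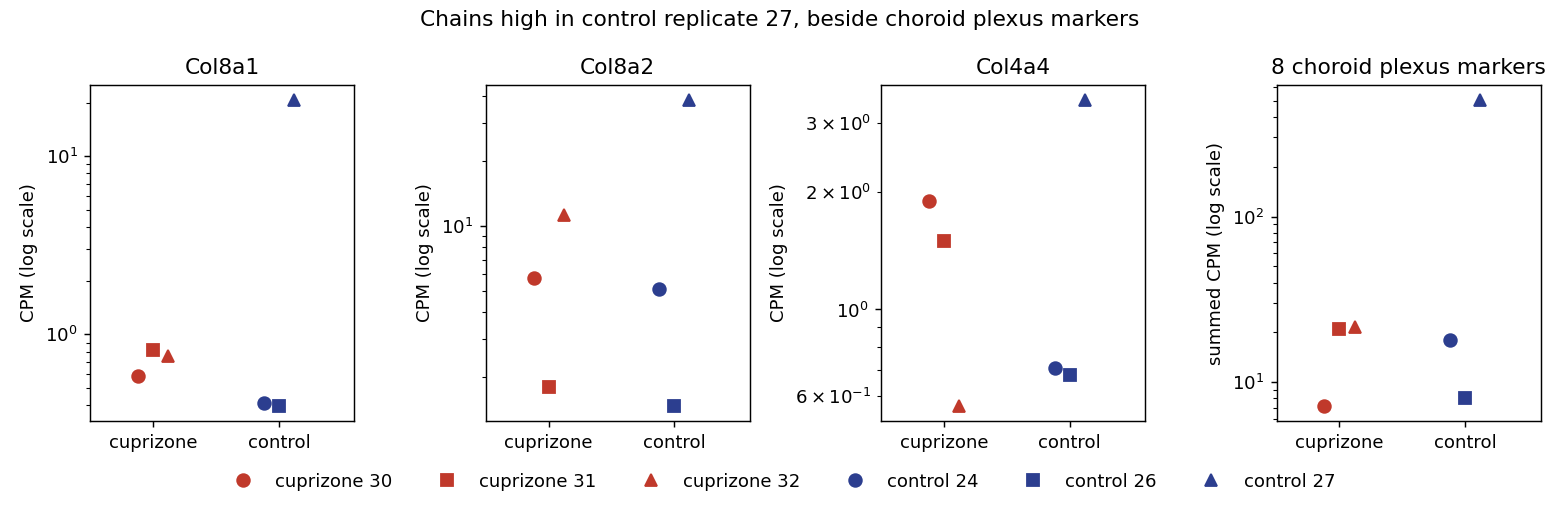
Col8a1, Col8a2, Col4a4 and the summed level of 8 choroid plexus markers in each library, on log axes, cuprizone left of control. Control replicate 27 is the highest library in all 4 panels, with 503 CPM of the markers against at most 21.5 CPM elsewhere.

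Transmembrane collagens span the cell surface and can be shed. Of 4, 2 were tested and neither passed with edgeR, DESeq2 or limma-voom or had an unadjusted p under 0.05. Col23a1 had 5.05, 6.24 and 5.24 CPM in cuprizone, against 6.43, 7.71 and 6.29 CPM in control, with groups that did not overlap by a narrow gap (log2 fold change -0.30 ± 0.17, edgeR adjusted p = 0.34). Col25a1, a collagen of neurons, had 10.5, 5.47 and 11.1 CPM in cuprizone, against 5.54, 7.14 and 5.48 CPM in control (log2 fold change 0.57 ± 0.29, edgeR adjusted p = 0.28). The 9 neuron markers summed to 2551, 1798 and 3408 CPM in cuprizone and 1489, 2468 and 2390 CPM in control. All 9 were tested, with no call by these tools and no unadjusted p under 0.05. Col25a1 and the neuron sum were both highest in cuprizone replicate 32 and lowest in replicate 31 within that group. In control the order differed, with Col25a1 lowest in replicate 27 and the neuron sum lowest in replicate 24, and the part of neuronal RNA was not tested. Col13a1 had 24, 4 and 19 counts in cuprizone and 2, 4 and 3 counts in control and was not tested. Col17a1, of the hemidesmosomes of skin, had 5, 2 and 8 counts in cuprizone and 4, 7 and 24 counts in control.

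The remaining chains were scarce. Of the 12 chains not tested 8 stayed under 1 CPM in every library, among them Col7a1, of the anchoring fibrils of skin, and Col24a1. Among the 13 tested chains that neither reached a mean of 5 CPM nor passed the threshold, log2 fold changes ran from -0.47 for Col26a1 to 1.31 for Col5a2. Col27a1, Col12a1, Col14a1 and Col19a1 lay within it at -0.20, 0.54, 0.13 and 0.09. A chain passed the filter when 3 libraries held enough counts, so a chain high in only 1 group could pass.

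Single libraries ordered the chains unevenly. Cuprizone replicate 30 was the highest of its group for 18 of the 32 tested chains, replicate 31 for 6 and replicate 32 for 8. In the control group, replicate 26 was the highest for 15, replicate 24 for 9 and replicate 27 for 8. Of the summed collagen signal per length, the 5 leading chains held 55.4%, 68.2% and 49.5% in cuprizone, against 65.2%, 68.4% and 69.6% in control. All chains together summed to 281, 229 and 179 CPM in cuprizone and 197, 217 and 252 CPM in control, which overlapped.

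Genes that make, process, bind and break down collagen were examined in 5 lists. Of 56 such genes 47 were tested, 3 rose (6.38%) and 5 fell (10.6%), beside 1.87% and 5.7% of all genes tested. The median log2 fold change of the 47 was 0.12. At an unadjusted edgeR p under 0.05 there were 23 of the 47, beside 23.3% of all genes. The groups did not overlap for 12 of them higher in cuprizone and 11 lower, where 12.6% and 17.6% of all genes did not overlap. The fallers included enzymes that trim, hydroxylate or digest collagen, and the risers included a prolyl hydroxylase subunit, a transcription factor and a receptor.

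Collagen chains are hydroxylated, folded and escorted in the endoplasmic reticulum by 19 of these genes, all tested, of which 2 rose and 2 fell. P4ha3, a subunit of prolyl 4-hydroxylase, had 43.3, 34.9 and 25.8 CPM in cuprizone, against 17, 13.8 and 8.74 CPM in control, and rose by 1.40 ± 0.28 on the log2 scale (edgeR adjusted p = 0.0287). Creb3l1, a transcription factor of collagen-secreting cells, had 33.4, 31.4 and 26.3 CPM in cuprizone, against 18.5, 14.2 and 12.6 CPM in control, and rose by 1.01 ± 0.18 (edgeR adjusted p = 0.0163). The groups of both genes did not overlap. Without control replicate 26 or 27 or cuprizone replicate 30 the adjusted p was 0.0863, 0.0768 and 0.0668 for Creb3l1 and 0.106, 0.0776 and 0.0943 for P4ha3, which was at 0.0617 without cuprizone replicate 31.

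Plod1, a lysyl hydroxylase, had 45.1, 49.0 and 42.3 CPM in cuprizone, against 102, 90.7 and 96.4 CPM in control, and fell by 1.09 on the log2 scale (SE 0.11, edgeR adjusted p = 0.00236). P3h4, a partner protein of lysyl hydroxylation, had 27.2, 37.5 and 17.7 CPM in cuprizone, against 69.8, 64.7 and 59.2 CPM in control, and fell by 1.23 (SE 0.26, edgeR adjusted p = 0.0316). P3h4 had an adjusted p of 0.0992, 0.0994, 0.0834 and 0.111 without control replicate 24, 26 or 27 or cuprizone replicate 30. The related Plod2 and Plod3 had log2 fold changes of 0.41 and -0.05 and did not pass (edgeR adjusted p = 0.37 and 0.82). Serpinh1, the collagen chaperone HSP47, had 97.2, 76.5 and 56.4 CPM in cuprizone, against 45.6, 47.8 and 56.4 CPM in control (log2 fold change 0.62 ± 0.21, edgeR adjusted p = 0.13), and edgeR called it higher without cuprizone replicate 32. It was chosen for its role after its values were seen.

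Of 13 genes that trim propeptides or cross-link fibrils, 10 were tested and 2 fell. Adamts2, the protease that removes the amino-terminal propeptide of fibrillar procollagens, had 3.38, 4.66 and 4.29 CPM in cuprizone, against 21.1, 34.7 and 20.9 CPM in control, and fell by 2.63 on the log2 scale (SE 0.25, edgeR adjusted p = 0.00209). Pcolce2, an enhancer of carboxy-terminal propeptide removal, had 4.19, 11.1 and 4.91 CPM in cuprizone, against 32, 33.0 and 36.6 CPM in control, and fell by 2.33 (SE 0.36, edgeR adjusted p = 0.0103). Neither gene's groups overlapped, and both passed with each library left out in turn. Tll2, a protease of the same family as Bmp1, had a log2 fold change of -2.56 ± 0.64 (edgeR adjusted p = 0.0598), and DESeq2 and limma-voom called it lower (adjusted p = 0.00498 and 0.0407). Adamts3, which acts like Adamts2, had the opposite sign, at 1.0 ± 0.34 (edgeR adjusted p = 0.13). DESeq2 called Adamts3 higher, and it was named after its value was seen.

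Among 12 collagen receptor genes 9 were tested and 1 rose. Itga1, a collagen-binding integrin subunit, had 3.38, 1.5 and 2.03 CPM in cuprizone, against 0.825, 0.510 and 0.582 CPM in control, and rose by 1.84 ± 0.40 on the log2 scale (edgeR adjusted p = 0.0374). It passed in no fit that left out a control (adjusted p = 0.0787, 0.138 and 0.152 without replicates 24, 26 and 27) nor without cuprizone replicate 30 (0.106) or 32 (0.0523), and its limma-voom adjusted p was 0.0570. Its exons share bases with Gm49395 on the same strand. Ddr1, a receptor tyrosine kinase for collagen, had 390, 412 and 241 CPM in cuprizone, against 702, 700 and 558 CPM in control (log2 fold change -0.91 ± 0.24, edgeR adjusted p = 0.0667), and its groups did not overlap. DESeq2 called Ddr1 lower (adjusted p = 0.00291), as did edgeR without cuprizone replicate 32 (adjusted p = 0.0366). Adgrg1, an adhesion receptor that binds type III collagen, had 134, 146 and 108 CPM in cuprizone, against 197, 227 and 156 CPM in control (log2 fold change -0.58 ± 0.18, edgeR adjusted p = 0.11), and DESeq2 called it lower (adjusted p = 0.0430).

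Of 8 proteases that cut collagen 5 were tested and Ctsk, the collagen-degrading cathepsin K, fell. It had 0.541, 2.31 and 1.6 CPM in cuprizone, against 5.72, 5.72 and 7.40 CPM in control, and fell by 2.07 on the log2 scale (SE 0.45, edgeR adjusted p = 0.0378). Its adjusted p was 0.0907, 0.0982 and 0.128 without control replicate 24, 26 or 27 and 0.0660 without cuprizone replicate 32. Mmp15 and Mmp14, membrane-bound metalloproteases, had log2 fold changes of -0.52 ± 0.19 and 0.31 ± 0.13 (edgeR adjusted p = 0.17 and 0.20). Of the 4 inhibitors of such proteases edgeR and limma-voom called none and DESeq2 called Timp2 higher, the 1 inhibitor at an unadjusted edgeR p under 0.05; its log2 fold change was 0.48 ± 0.14 (edgeR adjusted p = 0.0935). Timp1 and Timp4 had log2 fold changes of 0.90 ± 0.45 and -0.34 ± 0.18 (edgeR adjusted p = 0.28 and 0.30).

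**Figure D5:**
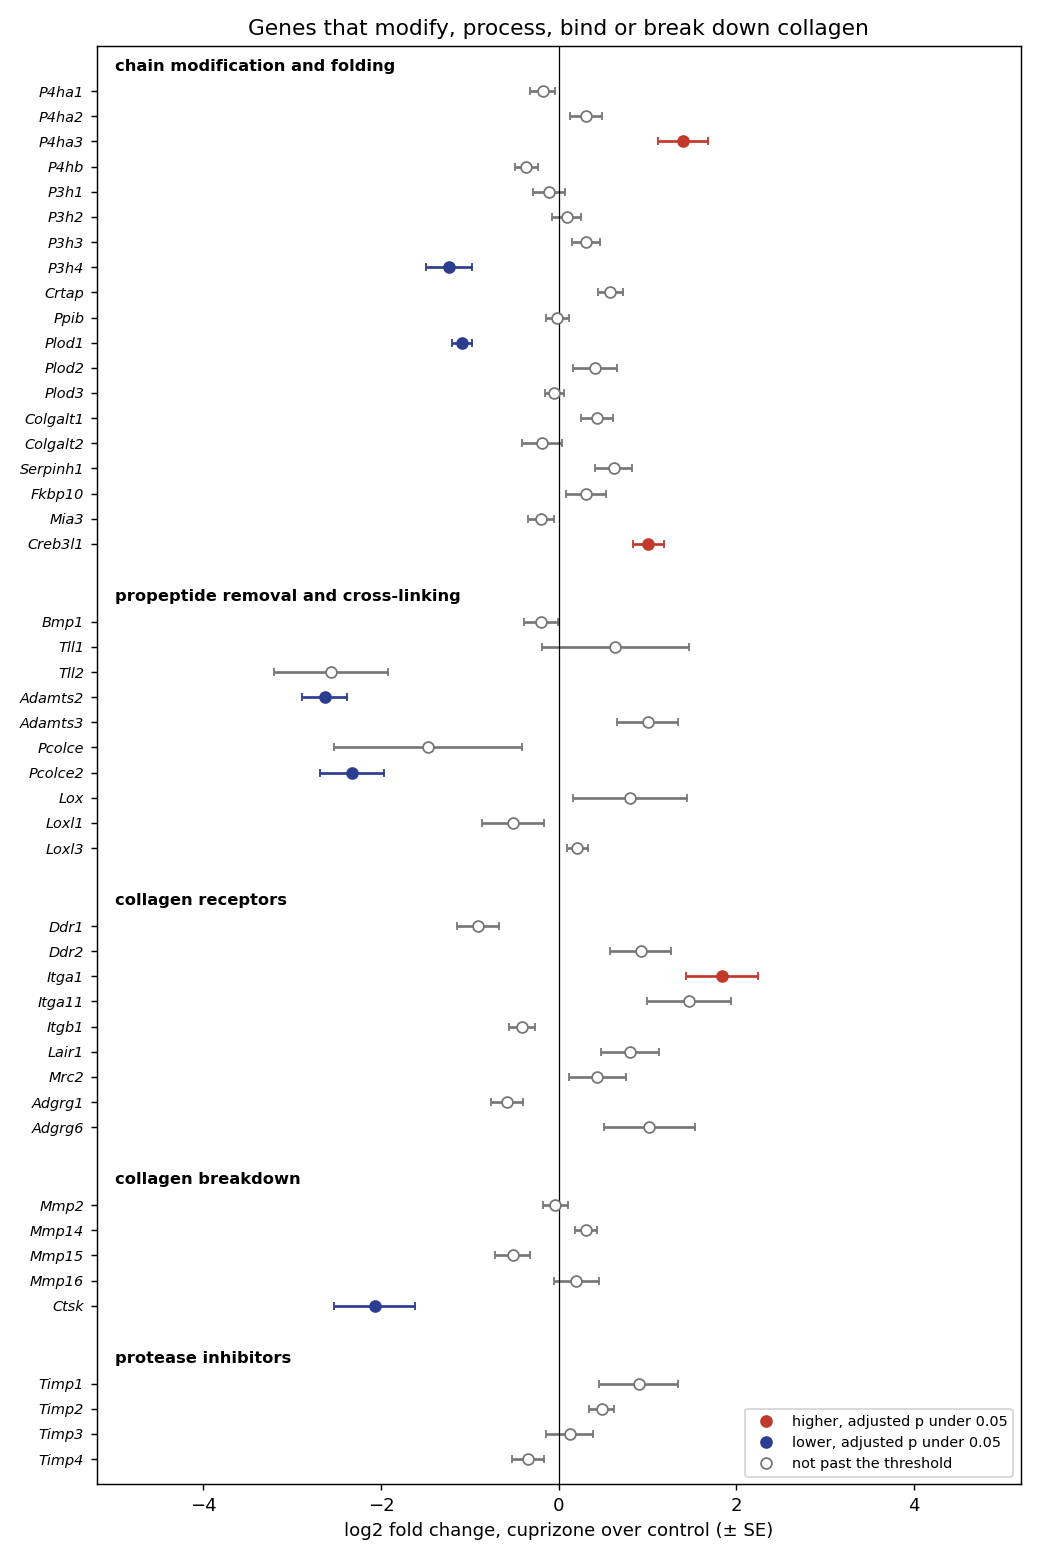
Log2 fold change of the 47 tested genes that modify, process, bind or break down collagen, cuprizone over control; bars are standard errors and filled points passed the threshold. Adamts2 at -2.63 and Pcolce2 at -2.33 lie farthest left among the filled points, and Itga1 at 1.84 farthest right.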

How the data were processed

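RNA from HA pull-downs of corpus callosum was sequenced in 6 libraries, 3 cuprizone and 3 control, grouped by sample title. The deposited values are unnormalized whole-number counts for each Ensembl identifier, as the file shows. Per the submitters' processing notes bcl2fastq 2.17 and mm10 were used; the sources used here give no aligner, counter, annotation release or strand setting. Symbols, exonic lengths and positions (1-based) came from GENCODE M21 of GRCm38, which matched 37693 of 39017 identifiers.

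The test was edgeR 4.0.16 in R 4.3.3: filterByExpr (minimum count 10, total 15), TMM scaling, estimateDisp and robust glmQLFit with glmQLFTest, 2-sided, Benjamini-Hochberg adjusted over 16569 genes, threshold 0.05. The standard error is the log2 fold change over the root of F. CPM use TMM-scaled library sizes; CPM per kilobase divide by the union of all annotated exons, which understates the level of genes with unused exons. Alternatives were DESeq2 1.42.0, limma-voom (limma 3.58.1), other scalings and filters, and each library left out. The procedure was tested on simulated counts. A permutation of 3 against 3 cannot give p below 0.1, so none was made.

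The chains and lists were chosen with earlier results of these data known. Values in every library are given for chains past the threshold or at a mean of 5 CPM in either group, and for partner genes past the threshold. In each partner list with fewer than 3 such genes, those of smallest adjusted p are also named. Other names were chosen after their values were seen. Of the 10 chain ratios computed 5 were added after the values were seen. The marker Lhfpl3 had no match by name.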

Additional observations from a re-analysis of the deposited data

How the results depend on the processing

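Col5a3 passed the threshold in the main test and under all 13 alternatives, with log2 fold changes of 3.57 to 4.34. Col2a1 and Col6a3 kept a negative sign in every alternative, and each lost the threshold in 4 of 6 fits with a library left out. With DESeq2 2 chains were higher and 2 lower (5.21% and 8.46% of all genes), and 6 partner genes were higher and 9 lower. With a library left out 1 to 3 chains were higher and 0 to 2 lower, and 0 to 7 partner genes were higher and 3 to 6 lower. The chains higher without cuprizone replicate 31 include Col13a1, which was not tested in the main fit. The library left out there is its lowest of the cuprizone group. With a library left out the count filter also asks for enough counts in fewer libraries. With no filter all 44 chains were tested and Col5a3 alone was called higher. The fits with a library left out called 0.385% to 2.77% of all genes higher and 2.81% to 5.75% lower. Over 35 named genes and 454 alternative values, 410 kept sign and side of the threshold, 29 lost it, 10 gained it and 5 turned sign, and the cause was not tested. With a library left out Col1a2 ran from -0.10 to 0.25, Col9a2 from -0.15 to 0.29, Col8a1 from -3.83 to 0.81 and Col8a2 from -1.99 to 0.92. Those that turned were Col1a2 (-0.10) and Col9a2 (-0.15) without cuprizone replicate 30, and Col9a2 (-0.0052), Col8a1 (0.81) and Col8a2 (0.92) without control replicate 27. Scaling moved the median of all genes to at most 0.08 on the log2 scale. No paired analysis was possible because the groups share no replicate number. In a library of this depth 3 counts are 0.128 to 0.142 CPM in cuprizone and 0.17 to 0.177 CPM in control, so chains under 1 CPM rest on few counts.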
